A study of Homo sapiens with 6 samples.

Results

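The clustered histone genes, which encode the replication-dependent histones, were examined in poly-A RNA of SiHa PR cells with and without P4HA3 overexpression. Members were the protein-coding genes with a symbol of the form H1-1 to H1-6, H2AC, H2BC, H3C or H4C followed by a number, matched by Ensembl gene identifier. The GENCODE annotation holds 69 such genes, and 67 of them were found among the 60664 genes of the count table. H2AC18 and H2AC19, whose identifiers did not match, were not analysed here. The 67 genes comprised 6 H1, 15 H2A, 18 H2B, 13 H3 and 15 H4 genes, with 55 on chromosome 6, 11 on chromosome 1 and 1, H4C16, on chromosome 12. SiHa is an established human cervical squamous carcinoma line, and SiHa PR cells are the parental cells of the study. The 3 control samples are labelled only SiHa PR, and the other 3 are SiHa PR cells that overexpress P4HA3, a collagen prolyl 4-hydroxylase subunit, which the study's methods describe as cDNA cloned in the pCDH vector. No drug treatment and no clone is given in the labels for either group. The labels do not say whether samples of a group were separate cultures, so p-values measure the spread between these samples only, which may be technical.

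Replication-dependent histone genes are expressed when DNA is copied and supply the histones that wrap the new DNA. H2A, H2B, H3 and H4 form the core of the nucleosome, and H1 binds the linker DNA between nucleosomes. Their mRNAs do not normally carry a poly-A tail. They end just after a short stem-loop, which is bound by the stem-loop binding protein SLBP and cut with the help of the U7 snRNP. Selection of poly-A RNA is made to keep tailed RNA, such as transcripts that ran past the stem-loop to a poly-A site. Counts per gene do not show where a transcript ended, so the levels below are those in selected RNA and may not stand for all histone mRNA. In bulk samples, fewer cells in a state and less RNA per cell cannot be told apart.

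The stem-loop is the feature that sets these mRNAs apart from tailed mRNA, and it was searched in the genome (GRCh38) within 150 bases after each stop codon. The stem had 6 positions and the loop 4 bases. The stem had to open with GG and close with CC, and the loop had to open with TT. Only A with T and G with C counted as pairs, and 1 stem position was allowed to differ. Such a match was found in 64 of the 67 genes, starting 23 to 63 bases after the stop codon (median 36). No match was found in H3C6, H2BC10 and H4C13, which says only that no stem-loop of this form is in this window. Over the 69 genes of the annotation, 40 carried the most frequent form and 10, 9 and 4 the next forms, while 3 forms occurred once. The examples below are a selection of the genes named in the results, each 5′ to 3′ on the strand of the gene with the stem-loop in capitals. The highest genes in poly-A RNA, H1-2 and H2BC12, both hold an unbroken stem. H2AC11 has the 1 stem among these with a position that was not counted as a pair, a T opposite a G. Whether that position pairs in the RNA was not tested.
H1-2: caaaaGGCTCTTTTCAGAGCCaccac
H2BC12: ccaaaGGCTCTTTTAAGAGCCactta
H2AC6: ccaaaGGCTCTTTTCAGAGCCcccct
H2BC18: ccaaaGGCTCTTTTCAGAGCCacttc
H2AC11: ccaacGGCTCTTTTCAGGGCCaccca
H4C8: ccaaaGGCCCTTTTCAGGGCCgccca
These windows lie at chr6:26055739-26055764 (H1-2, minus strand), chr6:27146361-27146386 (H2BC12, minus strand), chr6:26124664-26124689 (H2AC6, plus strand), chr1:149811880-149811905 (H2BC18, minus strand), chr6:27133510-27133535 (H2AC11, plus strand) and chr6:26285126-26285151 (H4C8, minus strand).

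The libraries held 21773488 to 24939948 counts each. P4HA3 had 86, 62 and 93 counts in the control libraries and 45042, 44775 and 49097 with overexpression, as labelled (log2 fold change 9.15, SE 0.10, adjusted p = 3.19e-12, edgeR's quasi-likelihood test). Of the 8 epithelial markers, KRT8, KRT17 and KRT18 were high (means of 1817, 5338 and 942 in control cells, in counts scaled to a common library size by TMM, or CPM), whereas KRT5, KRT19 and TP63 averaged under 1 CPM. The list summed to 7399 to 8517 CPM in control libraries and 6258 to 7298 with overexpression, without overlap. Of its 6 tested genes KRT17, KRT18 and CDH1 fell (KRT18 and CDH1 also after the correction), and 0 rose. The 6 smooth muscle markers, examined because the growth protocol in the labels describes smooth muscle tissue, all averaged under 1 CPM, with sums of 0.616 to 2.57 CPM in control libraries and 0.534 to 2.68 with overexpression. The 4 fibroblast markers summed to 47.5 to 53.3 and 38.7 to 52.4 CPM. Of the leukocyte markers, CD14 measured 99.9 ± 9.25 CPM in control cells and 45.1 ± 8.68 with overexpression (SD, n = 3), with PTPRC, CD3E and LYZ at or near 0. The endothelial list summed to 2.62 to 3.47 and 1.33 to 1.58 CPM, led by PECAM1. Its 1 tested gene fell in both fits (log2 fold change -1.03, and -1.07 after the correction). The 1 tested gene of the leukocyte list fell in both as well (-1.15 and -0.91). Of the 4 fibroblast markers, 0 passed the test without the correction and 1 was lower with it. The part of these markers in the histone results was not tested. Fold changes over all genes fell with GC content (Spearman's rho = -0.58 across genes, which are not independent replicates), and the clustered histone genes are rich in GC, so the tests are given with and without a fit corrected for GC and for the length of the transcript. The correction takes away whatever part of the difference between the groups follows these properties, of whatever origin.

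The clustered histone genes made up a small part of the poly-A RNA. Their counts summed to 25144, 22214 and 24209 in the control libraries and to 22303, 18850 and 22823 with P4HA3 overexpression. This was 0.101% ± 0.00119 of all counts in control cells and 0.0902% ± 0.00466 with overexpression (SD, n = 3). In TMM-normalized CPM, the sum was 1033, 1043 and 989 in control libraries and 958, 838 and 900 with overexpression, and the groups did not overlap. Without H1-2, the sum was 704, 736 and 709 against 713, 641 and 672 CPM, and the groups overlapped. A few genes held most of it, since the 6 highest took 85.4% ± 0.701 of the summed CPM in control cells and 82.3% ± 1.13 with overexpression.

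Many members were low. In control cells 34 of the 67 averaged under 1 CPM, and 10 reached at least 10 CPM. No count was found in any library for H1-1, H2AC1, H2BC1, H2BC3, H3C4 and H4C7, a set that includes genes known mainly from the germ line such as H2AC1 and H2BC1. Counting error alone allows up to 3 counts per library for these. A further 20 members had some counts but no more than 12 in any library, and were not tested. Among them, H2AC17 had 2, 4 and 2 counts in control libraries and 0 in each library with overexpression, and H1-6, the testis linker histone, had 0 in each control library and 1, 2 and 2 with overexpression. Both lie about the floor of 3 counts and no fold is given. The other 41 members passed the filter on low counts.

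**Figure D1:**
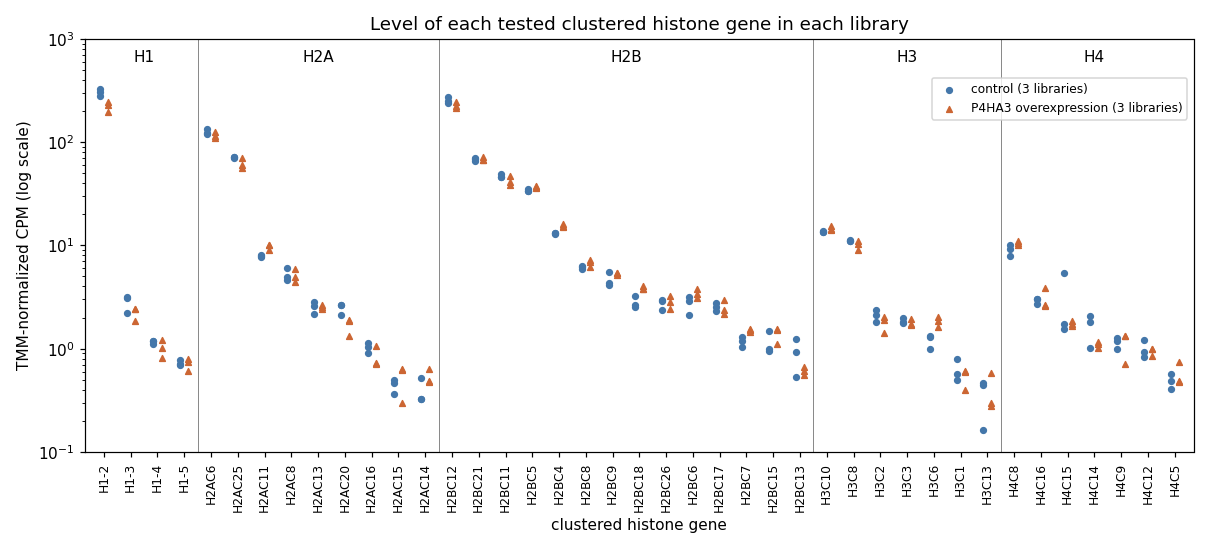
TMM-normalized CPM (vertical axis, log scale) of the 41 tested clustered histone genes in each of the 3 control libraries (circles) and 3 libraries with P4HA3 overexpression (triangles), by histone class. H1-2 and H2BC12 stand highest, at 280 to 329 and 238 to 275 CPM in control libraries, and each class is led by 1 or a few genes.

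Levels differed widely within each class. Per kilobase of merged exons, H2BC12 reached 515 CPM per kb in control cells and H1-2 reached 417. Of the other leading genes of each class, H2AC6 reached 75.2 CPM per kb, H2BC11 45.0, H2AC25 38.5, H3C8 22.3 and H3C10 10.8. H4C8 reached 4.21 and H4C9 2.89 CPM per kb, and the next H1 gene after H1-2 was H1-3 at 3.64. The order below H2BC12 and H1-2 depends on the length used. Per kb of the canonical transcript, H2AC6 reached 242 CPM per kb, H2AC25 139.7 and H2BC11 98.1, and H3C10 reached 27.9, H3C8 22.3 and H4C8 22.3. The counts cover all merged exons, so this scale raises genes whose merged exons are longer than the canonical transcript. H1-2 alone supplied 98.5% ± 0.226 of the summed H1 CPM in control cells, H2BC12 supplied 57.5% ± 1.58 of H2B, H2AC6 57.6% ± 1.495 of H2A, H4C8 46.0% ± 4.05 of H4 and H3C10 42.3% ± 0.173 of H3 (SD, n = 3). The H2A share and sums leave out H2AC18 and H2AC19. The class sums were 310 ± 24.4 CPM for H1, 217 ± 7.27 for H2A, 442 ± 19.8 for H2B, 32.1 ± 0.309 for H3 and 19.8 ± 2.12 for H4 in control cells. With overexpression they were 227 ± 23.2, 199 ± 15.4, 420 ± 22.7, 32.3 ± 0.692 and 19.9 ± 0.688 CPM. The H1 sum, which is nearly all H1-2, did not overlap between the groups (285 to 334 against 202 to 248 CPM), while the sums of H2A, H2B, H3 and H4 did.

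By position, the major cluster on chromosome 6 held 865 ± 30.7 CPM in control cells and 752 ± 52.6 with overexpression. The 9 analysed genes of the larger cluster on chromosome 1, most of whose RNA was H2BC21, held 79.6 ± 4.41 and 78.3 ± 2.37 CPM. H2AC18 and H2AC19 also lie in this cluster and are not in its sum. The distant pair H2AC25 and H2BC26 on the same chromosome held 74.0 ± 1.16 and 64.8 ± 7.65 CPM. H4C16 on chromosome 12 held 2.92 ± 0.191 and 3.02 ± 0.738 CPM.

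Members also differed in whether the annotation gives them an end past the stem-loop. Of the 64 genes with a stem-loop, 16 had at least 1 annotated transcript that ends at least 50 bases beyond it, and 48 had none. The former had a median of 2.88 CPM per kb of merged exons in control cells and the latter 0.795. Merged exons are longer where long transcripts are annotated, and per kb of the canonical transcript the medians were 14.8 and 0.795. The counts still come from all merged exons, so the second scale raises genes whose merged exons are longer than the canonical transcript. CPM alone is not scaled by length, and longer merged exons can hold more counts. At least 10 CPM was reached by 7 of the 16 (among them H2AC6, H2AC25, H2BC21, H2BC11 and H2BC5) and by 3 of the 48. Those 3 were H1-2, H2BC12 and H3C8, of which the first and second are the most abundant members. H2AC1, on the other hand, has an annotated long transcript and had no count. Annotation is drawn in part from tailed RNA, so this comparison is a description with no test.

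**Figure D2:**
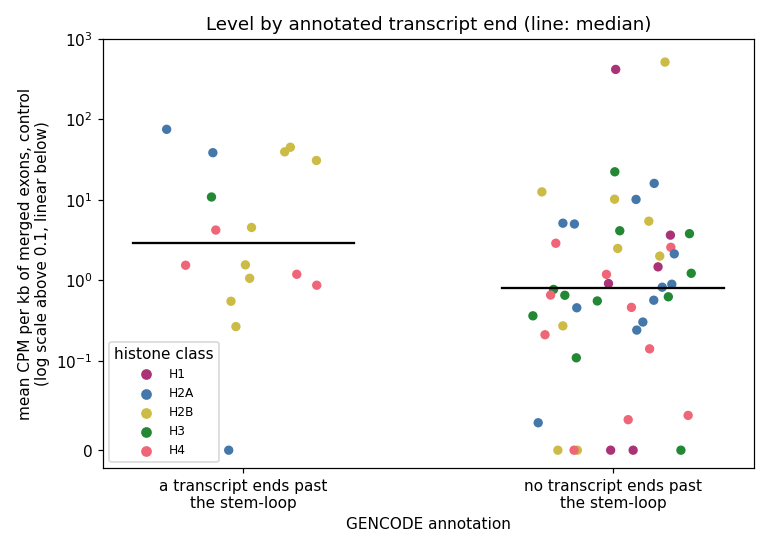
Mean CPM per kb of merged exons in control cells (vertical axis, log scale above 0.1) for the 16 stem-loop genes with an annotated transcript that ends past the stem-loop and the 48 without one, coloured by class, with the median as a line. The medians are 2.88 and 0.795 CPM per kb, and the highest genes, H2BC12 and H1-2, are on the right.

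With P4HA3 overexpression, 2 of the 41 tested members rose, H2BC18 and H3C6, and 1 fell, H1-2. Over all 15130 genes tested, 9.36% rose and 11.4% fell at the same threshold (an adjusted p under 0.05), against 4.88% and 2.44% of the tested members. The median log2 fold change of the members was -0.0083, against 0.0056 over all genes, with 19 above and 22 below 0. The 3 libraries of each group did not overlap for 8 members that were higher and 2 that were lower, which is 19.5% and 4.88% of those tested. Over all genes these shares were 19.7% and 20.4%. After the correction, 6 members were higher (H2BC4, H2BC5, H2AC11, H2BC18, H3C6 and H3C10) and 1 was lower (H1-2), beside 10.6% and 7.96% of all genes. The median of the members was then 0.19, with 33 above and 8 below 0, and that of all genes was 0.019. The correction used the GC content and length of the canonical transcript. For H2BC18, H2BC4 and H3C6 this is 492, 460 and 482 bases, beside 1798, 2881 and 2679 bases of merged exons. For H2BC5 and H3C10 it is 486 bases, beside 861 and 1250, and for H2AC11 both are 493. Counts per gene do not show which transcript was sequenced, and the part of this in the corrected values was not tested.

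**Figure D3:**
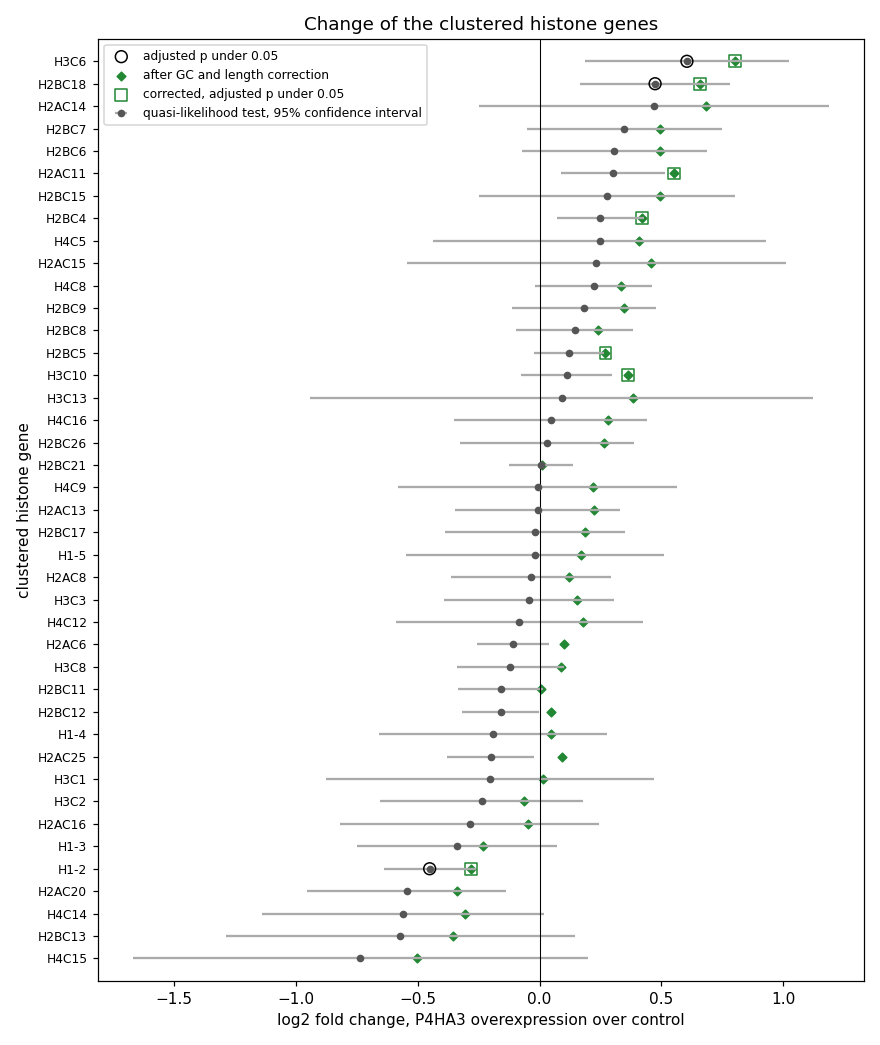
Log2 fold change of P4HA3 overexpression over control (horizontal axis) for the 41 tested members, with the 95% confidence interval of edgeR's quasi-likelihood test (circles and lines) and the value after GC and length correction (diamonds). Open circles and squares mark adjusted p under 0.05 in each fit: H1-2 lies below 0 in both, and all but 8 of the corrected values lie above 0.

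H1-2, which encodes a linker histone common in somatic cells, had the lowest adjusted p of the members. It measured 329, 307 and 280 CPM in control libraries and 244, 197 and 227 CPM with overexpression. Every library with overexpression lay below every control library. The mean went from 305 ± 24.4 to 223 ± 23.8 CPM (SD, n = 3), with a log2 fold change of -0.45 (SE 0.085, 95% interval -0.64 to -0.26, adjusted p = 0.00784 in edgeR's quasi-likelihood test). After the correction the log2 fold change was -0.28 (SE 0.050, adjusted p = 0.00314). The call was lost when control replicate 2 was left out (log2 fold change -0.45, adjusted p = 0.0565), and it held with any single library left out of the corrected fit. H1-2 lies at chr6:26055740-26056470 on the minus strand as a single exon, and no 150-base window of it has an exact copy elsewhere in the genome.

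The other H1 genes were much lower. H1-3 averaged 2.82 ± 0.536 CPM in control cells and 2.25 ± 0.346 with overexpression (log2 fold change -0.34, adjusted p = 0.202), H1-4 averaged 1.16 ± 0.046 and 1.01 ± 0.193, and H1-5 averaged 0.726 ± 0.044 and 0.717 ± 0.103. None of them passed the test, with 95% intervals of -0.75 to 0.073 for H1-3, -0.66 to 0.28 for H1-4 and -0.55 to 0.51 for H1-5 on the log2 scale.

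Among the H2B genes, H2BC18 rose. It measured 2.63, 2.53 and 3.23 CPM in control libraries and 4.08, 3.82 and 3.78 with overexpression, without overlap. The log2 fold change was 0.47 (SE 0.14, adjusted p = 0.0376) and 0.66 after the correction (adjusted p = 0.00979). The call was lost when either of the first 2 control libraries was left out (adjusted p = 0.140 for replicate 1 and 0.144 for replicate 2). It was also lost without the overexpression library of replicate 2 (0.0601) or replicate 3 (0.0958), and in DESeq2 (0.114). The corrected call of H2BC18 was lost without control replicate 2. Of the 150-base windows of H2BC18, 27.8% have an exact copy elsewhere in the genome, and 9.84% of its exon bases overlap FCGR1A on the opposite strand, so reads could be split or lost. H2BC4 measured 12.9, 13.0 and 13.3 CPM in control libraries and 15.2, 15.96 and 15.5 with overexpression. These groups did not overlap either, but the adjusted p was 0.0515 (log2 fold change 0.25, SE 0.081), and it was 0.0465 in limma-voom. After the correction its log2 fold change was 0.42 (adjusted p = 0.00599). Of the exon bases of H2BC4, 30.9% overlap genes on the opposite strand, HFE among them.

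The most abundant H2B genes did not pass the test. H2BC12 measured 238, 275 and 251 CPM in control libraries and 245, 212 and 226 CPM with overexpression, so that the groups overlapped. Its log2 fold change was -0.16 (95% interval -0.32 to -0.00081, adjusted p = 0.128) and 0.046 after the correction. H2BC21 measured 66.1, 69.2 and 70.4 CPM against 67.7, 66.6 and 72.1, with an interval of -0.13 to 0.14, and had nearly the same value before and after the correction (0.0057 and 0.011). With 47.9% GC in its canonical transcript of 2224 bases, H2BC21 had the lowest GC content of the tested members. H2BC11 measured 49.4, 46.2 and 45.6 against 46.5, 38.6 and 41.3 CPM (adjusted p = 0.162). H2BC5 measured 33.4, 35.0 and 33.5 against 37.9, 35.8 and 37.1 CPM, and its log2 fold change was 0.12 (adjusted p = 0.191) and 0.27 after the correction (adjusted p = 0.00503). Taken gene by gene, H2B had the highest median of the 5 classes, 0.13 over 14 tested genes and 0.27 after the correction. The summed H2B CPM was not higher with overexpression (442 ± 19.8 in control cells and 420 ± 22.7 with overexpression).

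**Figure D4:**
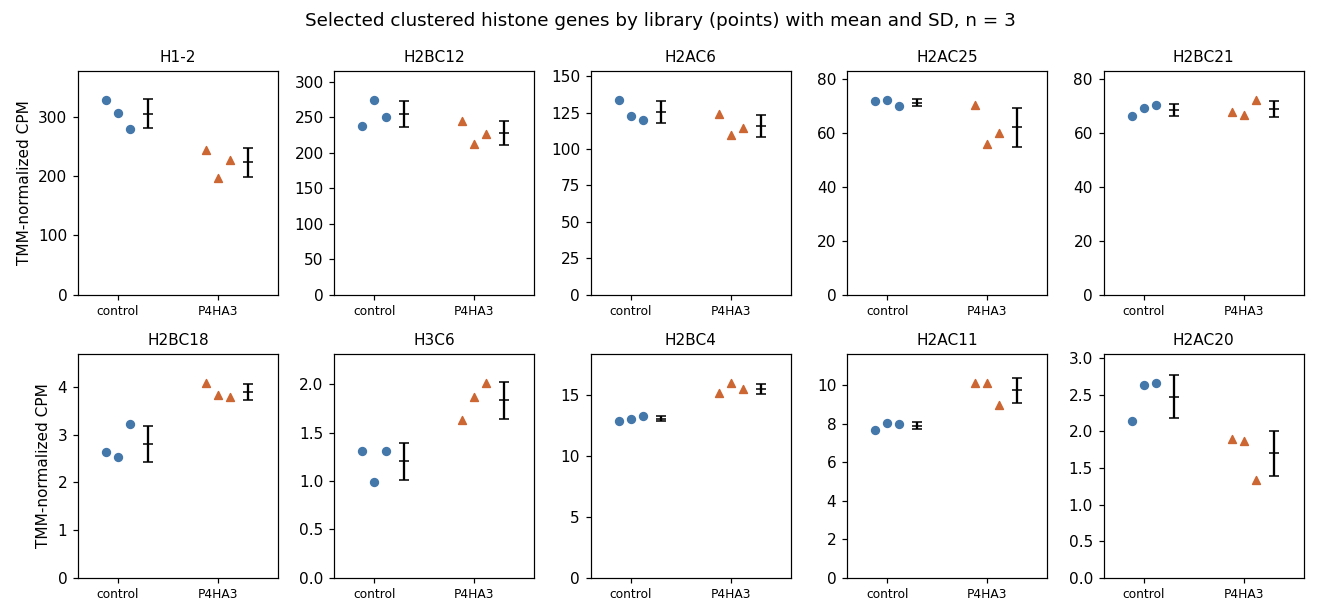
TMM-normalized CPM (vertical axes, from 0) of 10 clustered histone genes in each control library (circles) and each library with P4HA3 overexpression (triangles), with the mean and SD of 3 libraries beside them. The groups overlap in H2BC12, H2AC6, H2AC25 and H2BC21 and are apart in the other 6 genes, with H1-2 and H2AC20 lower and H2BC18, H3C6, H2BC4 and H2AC11 higher with overexpression.

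No H2A gene passed the test before the correction in edgeR, DESeq2 or limma-voom (3, 2 and 3 at an unadjusted p under 0.05). H2AC6, the highest, measured 134, 122 and 120 CPM in control libraries and 124, 109 and 115 CPM with overexpression (log2 fold change -0.11, 95% interval -0.26 to 0.037, adjusted p = 0.242). H2AC25 measured 71.7, 72.2 and 69.8 against 70.2, 55.9 and 59.8 CPM (log2 fold change -0.20, adjusted p = 0.0970). Both had positive values after the correction, 0.10 and 0.090, which did not pass the test. H2AC11 measured 7.68, 8.03 and 7.97 against 10.1, 10.1 and 8.99 CPM, without overlap. Its log2 fold change of 0.30 (SE 0.096) had an adjusted p of 0.05002, just above the threshold, and was 0.55 after the correction (adjusted p = 0.00327). H2AC20 measured 2.14, 2.63 and 2.66 against 1.89, 1.87 and 1.34 CPM, also without overlap. Its log2 fold change was -0.55 (SE 0.18, adjusted p = 0.0585) and -0.34 after the correction (adjusted p = 0.237).

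Of the H3 genes, which here encode only 2 distinct proteins among 13 genes, H3C6 rose. It measured 1.31, 0.986 and 1.31 CPM in control libraries and 1.63, 1.87 and 2.01 with overexpression, which are 21 to 32 and 38 to 51 counts. The log2 fold change was 0.60 (SE 0.19, adjusted p = 0.0457) and 0.80 after the correction (adjusted p = 0.0199). Without any 1 library other than P4HA3 overexpression replicate 1 the adjusted p was between 0.0612 and 0.159, and it was 0.172 in DESeq2 and 0.0530 in limma-voom. H3C10 measured 13.3, 13.7 and 13.6 against 14.1, 15.5 and 14.3 CPM, without overlap, with a log2 fold change of 0.11 (adjusted p = 0.349) and 0.36 after the correction (adjusted p = 0.0221). H3C8 overlapped between the groups (log2 fold change -0.12, adjusted p = 0.389).

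No H4 gene passed the test in either fit, and 0 of 7 had an unadjusted p under 0.05 in edgeR without the correction, as in DESeq2 and limma-voom. H4C8 measured 7.97, 10.04 and 9.32 against 10.1, 11.1 and 10.6 CPM, without overlap, with a log2 fold change of 0.22 (adjusted p = 0.155) and 0.33 after the correction (adjusted p = 0.0545). H4C14 and H4C15 are exact copies over every 150-base window of their annotated exons, so a single read inside such a window does not tell them apart. The counts were still unequal, and how reads were divided between the genes is not known. H4C14 had 44, 44 and 25 counts in control libraries and 27, 25 and 26 with overexpression. H4C15 had 42, 33 and 132 counts in control libraries and 39, 39 and 47 with overexpression, and control replicate 3 stood apart. Summed, the pair measured 3.53, 3.61 and 6.42 against 2.83, 2.85 and 2.88 CPM. All 15 H4 genes of the annotation but 1 encode the same protein. In all, 8 of the 67 members had copies over at least 50% of their windows (H2AC13, H2AC14, H3C14, H3C15, H4C11, H4C12, H4C14 and H4C15) and 56 had none, and how reads with several matches were counted is not stated. H3C4, H2AC7 and H2AC17 overlap another gene on the same strand over more than 50% of their exon bases, and their low counts are uncertain for this reason.

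The GC content of the tested members had a median of 58.3%, against 49.3% over all tested genes, and their canonical transcripts had a median length of 486 bases. Libraries of the same group also differed in this respect. The rank correlation of GC content with a library's deviation from its group mean was 0.22, 0.38 and -0.52 in control replicates 1 to 3 and 0.45, -0.48 and 0.077 with overexpression, as a description across genes. P4HA3 overexpression replicate 2, with -0.48, also had the lowest sum of histone CPM.

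Several members lie head to head and share the DNA between their starts. In 13 pairs of members on opposite strands the starts were at most 500 bases apart, and both genes were tested in 7. In 5 of these 7 the log2 fold changes had opposite signs, and in 2 of 7 after the correction. No gene of these 7 pairs passed the test without the correction, and some values were smaller than their SE. H2BC11 and H2AC11, 247 bases apart, had -0.16 and 0.30, and 0.0060 and 0.55 after the correction. H2BC4 and H2AC6, 218 bases apart, had 0.25 and -0.11, and 0.42 and 0.10 after it. H2BC21 and H2AC20, 235 bases apart, had 0.0057 and -0.55, and 0.011 and -0.34 after it. The differences within pairs were not tested. Levels within a pair could be far apart, most of all for H2BC12 at 515 CPM per kb in control cells and its partner H2AC12, 250 bases away, at 0.303.

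The promoters of these genes carry short elements known from histone genes. In the 250 bases before 68 RefSeq starts of 64 annotated members (GRCh38.p14), searched on both strands, CCAAT was found in 85.3% (32% of all 35116 promoters of the same length), TATAAA in 66.2% (10.7%) and the octamer ATTTGCAT in 39.7% (1.63%). The octamer was in 75.0% of H2B and 68.8% of H2A promoters, and in 0 of 6 H1 and 0 of 13 H4 promoters. These shares are not independent, since windows of head-to-head genes can be nearly the same DNA. H2AC11 (chr6:27132793-27133042) and H2BC11 (chr6:27132796-27133045) are an example, and the same match can then count in both classes. H2BC12 and H2BC5 also have starts a few bases apart that were counted separately. AAACACA, known as the H1 box, was in 6 of 6 H1 promoters, where it had 4.82% in all promoters. A TATAAA match can overlap its own reverse complement, as in TTTATAAA. The promoters of H1-2, the member that fell, H2BC12, the highest H2B gene, and H2BC18, which rose, are given 5′ to 3′ with these motifs, on either strand, in capitals.
H1-2: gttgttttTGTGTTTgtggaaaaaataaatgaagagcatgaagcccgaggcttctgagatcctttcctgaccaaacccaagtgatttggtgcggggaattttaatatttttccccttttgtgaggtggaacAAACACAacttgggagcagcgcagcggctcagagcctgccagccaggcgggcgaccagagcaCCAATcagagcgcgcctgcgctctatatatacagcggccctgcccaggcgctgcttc
H2BC12: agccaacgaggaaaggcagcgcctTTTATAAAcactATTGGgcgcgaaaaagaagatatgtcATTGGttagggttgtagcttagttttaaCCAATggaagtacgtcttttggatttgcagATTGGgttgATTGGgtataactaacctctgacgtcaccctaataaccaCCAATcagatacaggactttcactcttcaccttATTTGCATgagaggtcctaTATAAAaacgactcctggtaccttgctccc
H2BC18: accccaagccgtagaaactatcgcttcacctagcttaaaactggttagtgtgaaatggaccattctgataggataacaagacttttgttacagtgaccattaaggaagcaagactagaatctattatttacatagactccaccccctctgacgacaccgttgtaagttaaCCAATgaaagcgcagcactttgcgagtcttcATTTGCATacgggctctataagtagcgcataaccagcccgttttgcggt
They lie at chr6:26056471-26056720 (H1-2), chr6:27146856-27147105 (H2BC12) and chr1:149812371-149812620 (H2BC18), all on the minus strand. H1-2 has 2 matches to the H1 box and no octamer, and the H2B promoters have the octamer and no H1 box. A match is a description of letters and not of a bound site.

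Genes that make, process and remove histone mRNA were measured as well. For these and the lists that follow, the shares over all genes tested were 9.36% higher and 11.4% lower. After the correction they were 10.6% and 7.96%. Of the 14 tested genes of 3′ end processing, 0 passed the test in edgeR, DESeq2 or limma-voom, with 5, 6 and 6 at an unadjusted p under 0.05, and 4 were higher after the correction (SYMPK, CSTF2, SRRT and MBLAC1). The lowest adjusted p values before it were those of NCBP2 of the cap-binding complex (log2 fold change 0.20, adjusted p = 0.0616), CSTF2 (0.17, adjusted p = 0.0636) and ZNF473 of the U7 machinery (0.21, adjusted p = 0.0764). SLBP measured 81.9 ± 3.15 CPM in control cells and 83.7 ± 1.32 with overexpression (log2 fold change 0.031, adjusted p = 0.701). Of 12 genes of histone mRNA translation and decay, EXOSC10 (0.21, adjusted p = 0.0211) and ERI1, the exonuclease that trims the stem-loop end (0.32, adjusted p = 0.0275), rose on the log2 scale. MIF4GD, a partner of SLBP in translation, fell (-0.31, adjusted p = 0.0433). After the correction EXOSC10 (0.23) and the helicase UPF1 (0.17, adjusted p = 0.00848, against -0.0033 without it) were higher, and ERI1 and MIF4GD no longer passed.

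Of 11 genes of histone gene transcription, 1 passed the test. CCNE1, a cyclin that activates NPAT through CDK2, fell (log2 fold change -0.23, adjusted p = 0.0208, and -0.15 after the correction, adjusted p = 0.0396). CCNE2, the other cyclin E, had a log2 fold change of 0.44 (95% interval 0.13 to 0.75) with an adjusted p of 0.05002, just above the threshold, and 0.19 after the correction (adjusted p = 0.215). COIL, the coilin of Cajal bodies, had 0.21 (adjusted p = 0.109). NPAT, the coactivator of histone genes, measured 7.71 ± 0.924 and 9.74 ± 3.40 CPM (adjusted p = 0.268). CASP8AP2, a component of the histone locus body, measured 2.79 ± 0.610 and 4.50 ± 2.93 CPM (adjusted p = 0.222). For both, the SD with overexpression was larger than the difference between the means. Median log2 fold changes were 0.13 for 3′ end processing, 0.23 for translation and decay and 0.15 for transcription, and 0.050, 0.10 and 0.070 after the correction.

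The replacement histones, most of whose mRNAs carry poly-A tails, were measured beside them. H2AX is also known in a form that ends at a stem-loop. Their 12 genes summed to 3139 to 3262 CPM in control libraries and 2878 to 3218 with overexpression. CENPA, the centromeric H3, rose (log2 fold change 0.36, adjusted p = 0.00701). MACROH2A2 (-0.38, adjusted p = 0.00767), the linker histone H1-10 (-0.35, adjusted p = 0.0190) and H2AJ (-0.36, adjusted p = 0.0292) fell, and the other 8 did not pass. After the correction CENPA (0.36) and H2AX (0.22) were higher and MACROH2A2 (-0.28) and H3-3A (-0.19) lower, while H1-10 and H2AJ no longer passed (-0.028 and -0.085).

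Of 21 tested histone chaperones, 8 rose and 2 fell, and 6 were higher and 1 lower after the correction. Over all genes, 9.36% rose and 11.4% fell, and 10.6% and 7.96% were higher and lower after the correction. HJURP, the chaperone of CENPA, had the lowest adjusted p (log2 fold change 0.46, adjusted p = 0.00177, and 0.46 after the correction). NAP1L1 (0.36, adjusted p = 0.00897) and HAT1, which acetylates new H4 (0.38, adjusted p = 0.0167), also rose, and after the correction HAT1 still passed (0.19) and NAP1L1 did not (0.069). Among 30 genes of S phase, when histone genes are active, 5 rose and 6 fell, with a median of -0.031, and 3 were higher and 4 lower after the correction, with a median of -0.020. GINS2 (-0.29), MCM5 (-0.32) and E2F1 (-0.31) had the lowest adjusted p values of that list (0.0110 to 0.0155). After the correction GINS2 (-0.28) and MCM5 (-0.19) still passed and E2F1 (-0.082) did not. Among 24 mitotic genes 17 rose and 0 fell in both fits, with a median of 0.47 and 0.34 after the correction. KIF20A (0.46), BUB1 (0.48) and KIF23 (0.63), which act in spindle control and cytokinesis, had the lowest adjusted p values of that list (0.00111 to 0.00162). The part of cell cycle genes in the histone values was not tested.

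RNAs that carry no poly-A tail were counted for comparison. Of 19 such RNAs, such as RN7SK, RMRP and the spliceosomal RNAs, 9 had no count in any library and only RN7SL1 was tested. It had 81, 79 and 61 counts in control libraries and 79, 65 and 131 with overexpression (adjusted p = 0.376). The others had at most 2 counts in any library. The list summed to 2.62 to 3.99 CPM in control libraries and 3.16 to 5.36 with overexpression, and the groups overlapped. The parts of tailing, fragment size and copy number in these low counts were not tested.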

How the data were processed

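Poly-A RNA of 3 control and 3 P4HA3-overexpressing SiHa PR samples was sequenced from strand-specific libraries. The deposited values are raw counts per Ensembl gene, which the authors made by aligning reads to GRCh38 with STAR and counting with HTSeq; the submitters' processing notes name HISAT2. Versions, strand setting and multi-mapping rule are not given in the sources used here. Genes were kept by filterByExpr (minimum count 10), normalized by TMM and tested with edgeR 4.0.16 (R 4.3.3; glmQLFit and glmQLFTest, two-sided, Benjamini-Hochberg over 15130 genes). GC and length trends were fitted with mgcv 1.9.3 and used as offsets over 15107 genes, and scripts were tested on simulated data. DESeq2 1.42.0, limma 3.58.1 and other alternatives are given in the closing section. Members and lists were chosen with earlier results of these data known. Any member that passed the filter could be named; of each related list, SLBP, NPAT, CASP8AP2 and up to 3 genes with the lowest adjusted p were, and other genes called in a list or only after the correction were named after their values were seen. Symbols, positions and lengths come from GENCODE (60463 of 60664 identifiers matched), and promoters from RefSeq. Libraries within a group differed beyond sampling noise (chi-square per degree of freedom 5.17 to 17.8). One marker gene of the leukocyte list is not reported here.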

Additional observations from a re-analysis of the deposited data

How the results depend on the processing

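The number of members higher with P4HA3 overexpression was 2 in the reported fit, 0 in DESeq2 (3 at an unadjusted p under 0.05, over 30 members with an adjusted p), 6 with the GC and length correction and 0 to 3 with single libraries left out, where it was 0 on leaving out control replicate 1 or 2, or replicate 2 or 3 of the overexpressing cells. At an unadjusted p under 0.05, 4 to 6 were higher in those fits. The number lower was 1 in the reported fit, 4 with no filter on low counts (H1-2, H2AC17, H2AC20 and H4C15) and 0 to 5 with single libraries left out, with 0 (4 at an unadjusted p under 0.05) on leaving out control replicate 2 and 5 on leaving out overexpression replicate 1. In the corrected fit, leaving out each library, an alternative chosen after seeing the data, gave 3 to 7 higher members, with the 3 without control replicate 2, and 1 lower. The labels do not say whether replicate numbers pair the samples. Same-number correlations were 0.25, -0.049 and 0.030. Control replicate 3 and overexpression replicate 2 had 0.27, and both deviated from their group mean with GC content (-0.52 and -0.48). The correlations hold such library trends and so cannot decide on pairing. With the replicate block, 2 members were higher and 3 lower (H2AC20 and H4C15 added), and with the block and the correction 9 were higher and 1 lower.

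The median log2 fold change of the members was -0.0083, 0.19 with the correction, 0.18 with the correction and the replicate block, and -0.062 to 0.062 with single libraries left out. The median log2 ratio of mean CPM was -0.019 over genes and -0.076 over sums per histone class. With the correction, 14 of the 22 members below 0 turned positive and 0 turned negative. Among the members highest in their class, with the correction and with the correction and the block, the sign turned for H2AC25 (0.090 and 0.090), H2AC6 (0.10 and 0.10), H2BC11 (0.0060 and 0.0058), H2BC12 (0.046 and 0.048), H3C8 (0.088 and 0.085) and H4C9 (0.22 and 0.21). H4C9 also turned with library size only (0.0073), with no filter (0.0025) and within -0.15 to 0.23 with single libraries left out, and H2BC21 ranged from -0.028 to 0.028 there. None of these values passed the test. Other causes of these changes were not tested. P4HA3 stayed past the threshold under every alternative. Members of 1 CPM rest on about 20 counts per library, so small changes of low members were not detectable.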
